A study of Mus musculus with 76 samples.

Results

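The mouse mitochondrial genome carries 37 genes, and all of them were listed in the deposited counts of 76 patched hypothalamic neurons, as 37 of 56980 genes. They were chosen by symbol, as every gene whose mouse symbol starts with mt-, and hold 13 protein genes, 2 rRNA genes and 22 tRNA genes. All 37 lie on chromosome M of the GRCm38 annotation (GENCODE M21). Of these genes, 19 had at least 1 count in at least 1 cell and 18, all of them tRNA genes, had none.

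Each library held the content of 1 neuron, which was recorded with a patch pipette, aspirated into it and reverse transcribed (SMART-Seq Single Cell kit). The neurons carried the red tdTomato reporter, switched on by tamoxifen in adulthood through a CreERT2 recombinase that Pomc promoter elements drive (Pomc CreERT2;tdTomato;Pomc-eGFP mice), so that all 4 groups share the tracer and the tamoxifen. Cells with green Pomc-eGFP fluorescence were labelled Pomc+ and cells without it Ghost. The mice had eaten chow (CD) or a high-fat diet (HFD) for several months. There were 15 Ghost cells on CD, 19 Ghost cells on HFD, 23 Pomc+ cells on CD and 19 Pomc+ cells on HFD. The labels name no mouse, so each group was 1 sample of cells, and differences between groups are given as values without a test.

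Mitochondria keep a small circular genome of their own. Each of its strands is transcribed as a long precursor, from which the tRNAs are cut out and the rRNAs and mRNAs released. The rRNAs are part of the mitochondrial ribosome, and the protein genes encode core subunits of the respiratory chain and of ATP synthase, while nearly all other subunits are imported from the cytosol. In single-cell data the share of counts on these genes is commonly read as a sign of cell quality.

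Nuclear DNA holds old copies of mitochondrial sequence, and some of them can be told from the original at few bases or none. Of the 15 rRNA and protein genes, 7 matched an annotated nuclear transcript at 99% identity or more over at least 100 bases. The 7 matching pseudogenes lie next to each other on the minus strand of chromosome 1, at chr1:24611535-24616197 in GRCm38, each named here with the gene it copies. The first bases of mt-Co2, which encodes a subunit of cytochrome c oxidase (complex IV), are shown because they stand unchanged in the copy Gm28661, so no base is in capitals. For mt-Nd3, a subunit of NADH dehydrogenase (complex I), and for the 3' part of mt-Co1, the catalytic subunit of complex IV, the original and its copy are shown over 61 bases, and the capital letter marks the only base that differs over the whole match. All are given 5' to 3' on the strand of the gene, from the annotated transcripts of GENCODE M21.
mt-Co2, chrM:7013-7102, plus strand: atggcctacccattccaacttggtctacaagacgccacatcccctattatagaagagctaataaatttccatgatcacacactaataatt
mt-Nd3, chrM:9459-9519, plus strand: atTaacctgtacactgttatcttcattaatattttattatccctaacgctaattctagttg
Gm28438, chr1:24613059-24613119, minus strand: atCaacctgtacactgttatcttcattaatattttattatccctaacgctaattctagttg
mt-Co1, chrM:6390-6450, plus strand: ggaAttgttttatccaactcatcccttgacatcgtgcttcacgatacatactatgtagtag
Gm29216, chr1:24616128-24616188, minus strand: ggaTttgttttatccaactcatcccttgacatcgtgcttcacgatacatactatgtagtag

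Counting from 1 at the first base of the gene, the difference in mt-Nd3 is T3C (base 3 of 345 aligned) and that in mt-Co1 is A1066T (483 bases aligned, from base 1063 to base 1545). The copy Gm28661 matched mt-Co2 at 100% over 681 of 684 bases. Gm10925 matched mt-Atp6, a subunit of ATP synthase, at 100% over 678 of 681 bases. Gm28437 matched mt-Co3, the third mitochondrial subunit of complex IV, at 100% over 783 of 784 bases. Gm10222 matched mt-Nd4l at 100% over 294 of 297 bases. Gm28439 matched the first 876 of the 1378 bases of mt-Nd4 at 100%, and both genes encode subunits of complex I. No other rRNA or protein gene had such a copy among the annotated transcripts, which were the only nuclear sequence searched here.

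The 37 genes took 345646 of 32910186 counts, or 1.05% (95% exact interval 1.047% to 1.054%, which covers counting error only). The 2 rRNA genes took 179186 of these counts, the protein genes 166434 and the tRNA genes 26. mt-Rnr2, the large rRNA (chrM:1094-2675), alone held 46.7% of the mitochondrial counts with 161292 counts, and it was the only member counted in all 76 cells. mt-Rnr1, the small rRNA (chrM:70-1024), had 17894 counts in 73 cells. The size factors behind the deposited normalized values rest on the 7 genes that are counted in every cell, and mt-Rnr2 is 1 of these 7.

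Set per length, the members fell into separate ranges. mt-Rnr2 stood first with 101954 summed counts per kilobase. Next came mt-Co1 with 35480 (1545 bases), mt-Nd1 with 32067 (957 bases), mt-Cytb with 30705 (1144 bases) and mt-Rnr1 with 18737. mt-Cytb encodes cytochrome b, the only mitochondrial subunit of complex III, and mt-Nd1 a core subunit of complex I. The complex I genes mt-Nd2 with 10686, mt-Nd4 with 10660, mt-Nd5 with 7786 and mt-Nd6 with 7150 counts per kilobase followed. The level then dropped to mt-Co3 with 1131, mt-Co2 with 739.8, mt-Nd3 with 721.3 and mt-Atp6 with 660.8 counts per kilobase. mt-Nd4l with 30.3 and mt-Atp8, another subunit of ATP synthase, with 24.5 counts per kilobase stood last among these 15 genes.

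**Figure D1:**
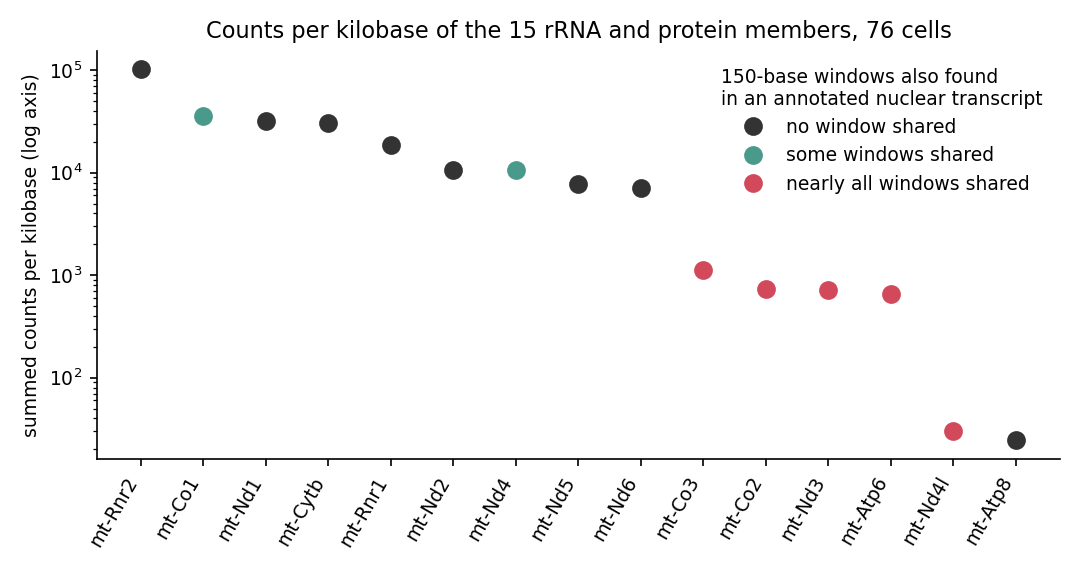
Summed counts per kilobase over 76 cells (log axis) of the 2 rRNA and 13 protein genes in falling order. The colour gives the share of a gene's 150-base windows that also occur in an annotated nuclear transcript: mt-Co3, mt-Co2, mt-Nd3, mt-Atp6 and mt-Nd4l, with nearly all windows shared, sit between 30.3 and 1131 counts per kilobase, whereas mt-Rnr2 to mt-Nd6 sit at 7150 or above.

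The 5 genes mt-Co2, mt-Co3, mt-Atp6, mt-Nd3 and mt-Nd4l are those whose copies cover nearly their whole length. Sequencing reads were 150 bases long, and 99.4% of all 150-base windows of mt-Co2, 99.8% of mt-Co3, 99.4% of mt-Atp6, 97.0% of mt-Nd3 and 98.0% of mt-Nd4l also occur in an annotated nuclear transcript. For mt-Nd4 this share was 59.2% and for mt-Co1 23.6%, and it was 0 for mt-Rnr1, mt-Rnr2, mt-Nd1, mt-Nd2, mt-Nd5, mt-Nd6, mt-Cytb and mt-Atp8. The 5 genes had 2103 counts together, 1.26% of the counts on the 13 protein genes. The highest of them, mt-Co3, had 6.32 times fewer counts per kilobase than the lowest of the 7 protein genes from mt-Co1 to mt-Nd6. How the counting treated reads that match at 2 places is not given in the sources used here, so the levels of these 5 genes are uncertain, and the part of the copies in them was not tested.

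The copies themselves had counts. Gm28437 had 843 counts in 60 cells beside 887 on mt-Co3, Gm28661 had 736 in 61 cells beside 506 on mt-Co2, and Gm10925 had 511 in 55 cells beside 450 on mt-Atp6. Gm29216 had 679 counts in 62 cells, Gm28439 111 in 35 cells, Gm28438 49 in 27 cells and Gm10222 8 in 6 cells, which makes 2937 counts on the 7 copies. With the counts of original and copy added, mt-Co3 would stand at 2207, mt-Co2 at 1816 and mt-Atp6 at 1411 counts per kilobase. On the same scale mt-Nd3 would stand at 862.1 and mt-Nd4l at 57.2, against 7150 for mt-Nd6. How reads that fit both genes of a pair were counted is not given in the sources used here. If such reads were left out, they are missing from both counts and so from these sums. The sums therefore cannot show the true level of these genes, which was not tested.

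The nuclear genes whose level most closely followed the share of counts on the 13 protein genes were such copies too. Among the 1553 other genes with a symbol and a count in at least 38 cells, the 5 highest Spearman correlations over the 76 cells were those of Gm28661 (0.80), Gm10925 (0.79), Gm28437 (0.74), Gm29216 (0.70) and Gm13340 (0.60), against a median of -0.04 over all 1553. Gm13340, on chromosome 2, matches mt-Co1 at 97.6% over all 1545 bases and had 229 counts. Original and copy had Spearman correlations of 0.76 for mt-Atp6 and Gm10925 and 0.75 for mt-Co2 and Gm28661. They were 0.67 for mt-Co1, 0.59 for mt-Co3, 0.56 for mt-Nd3 and mt-Nd4 and 0.26 for mt-Nd4l with their copies on chromosome 1. A read from a stretch of identical bases fits both genes of a pair. How far the counts of a copy are its own was not tested. All these values share the cell's total count as their denominator. Lars2, a leucyl-tRNA synthetase gene with 2214692 counts, and Gm15564 with 31986 counts stood on the same list of candidate copies, but their annotated transcripts had no match to a member. Their correlations with the protein-gene share were 0.10 and 0.13, and those with mt-Rnr2 were 0.39 and 0.42. Gm10924, the last gene of that list, was not analysed here.

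mt-Atp8 (chrM:7766-7969) had no such copy among the annotated transcripts, the only nuclear sequence searched. It lies between mt-Co2 and mt-Atp6, whose copies Gm28661 and Gm10925 are neighbours on chromosome 1. The stretch between these 2 copies was not searched, so whether it holds a copy of mt-Atp8 is not known here. mt-Atp8 was among the least counted genes, with 5 counts in 5 cells, 4 of them on HFD and all 5 labelled Pomc+. Its sequence is shown with the 43 bases that it shares with the start of mt-Atp6 (chrM:7927-7969) in capitals. At 204 bases it is the shortest of the protein genes. Whether a read in the shared stretch was given to a gene is not stated.
mt-Atp8, chrM:7766-7969, plus strand: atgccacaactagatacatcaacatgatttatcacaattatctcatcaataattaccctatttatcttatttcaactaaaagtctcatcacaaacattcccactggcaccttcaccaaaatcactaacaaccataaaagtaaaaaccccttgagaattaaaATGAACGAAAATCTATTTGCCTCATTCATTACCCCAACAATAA

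The tRNA genes, 59 to 75 bases long, were almost without counts. mt-Tp, for proline, had 21 counts in 10 cells, mt-Tq, for glutamine, and mt-Tl2, for leucine, had 2 counts in 2 cells each, and mt-Tf had 1 count. For each of the other 18 tRNA genes, a count of 0 allows up to 3 counts of the total, or 0.0912 per 1000000 counts. mt-Tp and mt-Tq lie on the minus strand, as do mt-Nd6 and 6 of the uncounted tRNA genes (mt-Ta, mt-Tn, mt-Tc, mt-Ty, mt-Ts1 and mt-Te). The library kit does not mark the strand, so a read of mt-Nd6 (chrM:13552-14070) cannot be told from a read of the opposite strand of the same bases. mt-Nd5 overlaps mt-Nd6 by 14 bases on the opposite strand.

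In base make-up the 15 genes differed less in GC content than in A content. Their GC content lay between 31.9% in mt-Atp8 and 41.1% in mt-Nd4l, and their A content between 22.2% in mt-Nd6 and 40.7% in mt-Atp8. The longest run of A had 8 bases in mt-Nd2 and 7 in mt-Rnr2, mt-Nd4, mt-Nd5 and mt-Co1, against 3 in mt-Nd6 and 4 in mt-Co2 and mt-Nd4l.

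Cells differed far more in their mitochondrial share than the groups did. The share of all counts ran from 0.0145% to 9.45% over the 76 cells, with a median of 0.898%, quartiles of 0.474% and 1.65%, and 14 cells above 2%. In Ghost cells it ran from 0.0509% to 3.87% with a median of 0.910%, and in Pomc+ cells from 0.0145% to 9.45% with a median of 0.797%. On CD the lowest cell had 0.0145%, the median was 0.819% and the highest cell had 9.45%. On HFD the lowest cell had 0.210%, the median was 0.966% and the highest cell had 5.22%. The ranges overlapped over most of their length in both comparisons, and the lowest 4 of all cells were on CD.

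The median share was 1.14 times that of Pomc+ cells in Ghost cells, whereas the mean share was 0.892 times and the share of pooled counts 0.916 times as high, so the 2 labels had no fixed order. The Ghost to Pomc+ ratio of medians was 1.10 on CD and 0.909 on HFD. Between diets the median share was 1.18 times as high on HFD, the mean 1.16 times and the pooled share 1.56 times, at 1.25% on HFD against 0.806% on CD. The HFD to CD ratio of medians was 1.09 in Ghost cells and 1.32 in Pomc+ cells.

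The 13 protein genes and mt-Rnr2 differed in their ratio of medians between diets, and less so over pooled counts. The protein genes took 0% to 1.97% of the counts on CD with a median of 0.232%, and 0.0272% to 2.697% on HFD with a median of 0.456%, a ratio of medians of 1.97 (1.43 for the means and 1.68 for pooled counts). mt-Rnr2 took 0.0143% to 7.28% on CD with a median of 0.450%, and 0.0619% to 2.29% on HFD with a median of 0.397%, a ratio of medians of 0.88 (1.01 for the means, 1.39 without the Pomc+ CD cell of the highest share, and 1.47 for pooled counts). In the 67 cells with at least 100 counts on the protein genes, there were 1.24 counts on mt-Rnr2 for each count on a protein gene on CD (median, quartiles 0.661 and 2.26, n = 31 cells) and 0.874 on HFD (quartiles 0.709 and 1.30, n = 36 cells). The quartile ranges of the 2 diets overlapped. Of the 9 cells with fewer than 100 counts on the protein genes, with 0 to 95 counts, 7 were on CD.

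**Figure D2:**
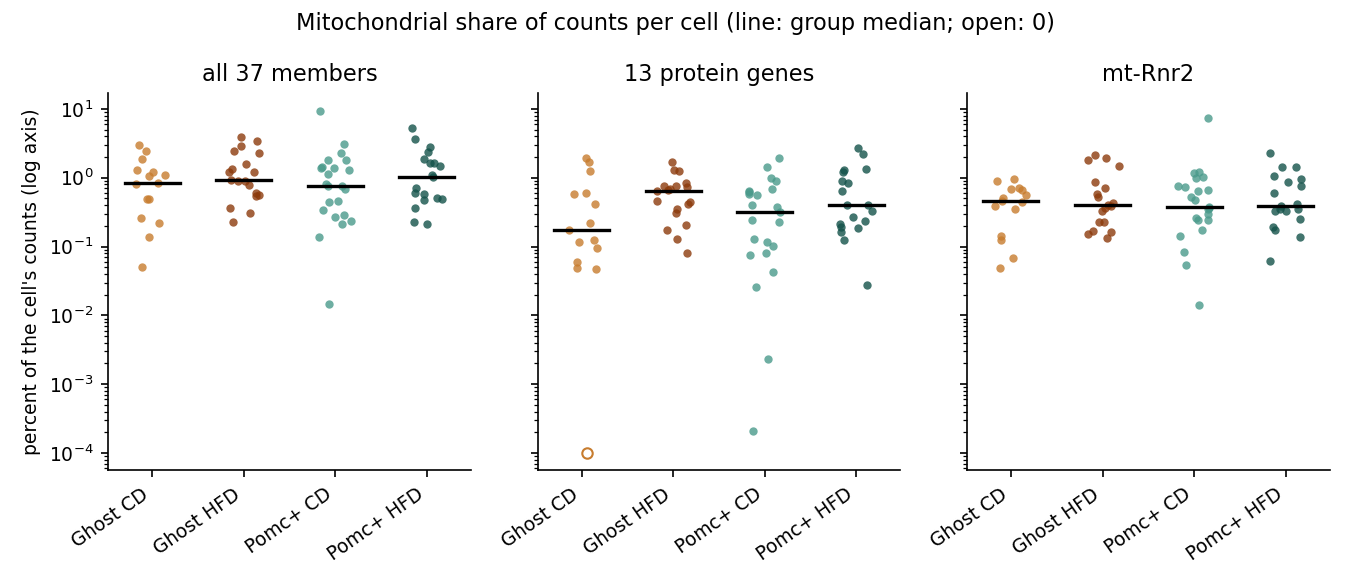
Percent of each cell's counts (log axis) on all 37 members, on the 13 protein genes and on mt-Rnr2, for 15 Ghost CD, 19 Ghost HFD, 23 Pomc+ CD and 19 Pomc+ HFD cells; each point is 1 cell, the line is the group median, and the open circle is a cell at 0. All groups overlap, the medians of all members lie between 0.769% and 1.01%, and those of the protein genes between 0.173% in Ghost CD and 0.643% in Ghost HFD.

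The cells are numbered in the labels, and the diet changes along these numbers so that 8 blocks result, whose meaning is not stated. In the first block, 6 CD cells numbered 630 to 636, the mitochondrial share had its lowest median, 0.219%, with 0.0951% on the protein genes and a median of 4748.5 genes detected per cell. In the other 7 blocks the median share lay between 0.426% and 1.39%. Without the first block the HFD to CD ratio of medians was 0.893 for all members and 1.18 for the protein genes. These were the lowest values when any 1 block was left out, and the highest were 1.29 and 2.77. Because each block holds 1 diet, blocks and diets cannot be told apart. Ghost and Pomc+ cells could be set side by side in the 6 blocks with at least 3 of each, and the Ghost median was higher in 4 of them and lower in 2, by -0.25 to 1.598 percentage points.

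Single cells stood out at both ends. The cell numbered 700, a Pomc+ cell on CD with 36556 counts, had the highest share, 9.45%, of which mt-Rnr2 made 7.28% of its counts. Next came a Pomc+ cell on HFD, numbered 650, with 5.22%, of which the protein genes made 2.697%. The cell numbered 631, a Pomc+ cell on CD, had the most counts of all, 1452605, and the lowest share, with 208 of its 211 mitochondrial counts on the rRNA genes and 3 on the protein genes. A Ghost cell on CD, numbered 709, had 161 mitochondrial counts and none on a protein gene among 316373 counts and 5405 genes detected.

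For single members the mean level in CPM (counts scaled to a total of 1000000 in each cell) was compared between groups, with a ratio past 1.5-fold in either direction taken as past the fold. Of the 37 members, 13 had 5 or more counts in 3 or more cells (both rRNA genes and all protein genes but mt-Nd4l and mt-Atp8), and each of the 13 also met this within each label and within each diet. Of 12265 genes that met it, 32.7% were past the fold upwards on HFD and 27.9% downwards, and 25.4% were past it upwards and 36.9% downwards in Ghost against Pomc+ cells. The median log2 ratio over these genes was 0.04 for HFD to CD and -0.15 for Ghost to Pomc+.

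Between diets, 12 of the 13 members had a higher mean on HFD, 5 were past the fold upwards and none downwards, and their median log2 ratio was 0.47. A share of 5 in 13 is near the background of 32.7%. The count was 8 without the cell numbered 700, described above (background 32.6%), 10 without block 3 (43.9%) and 8 without block 7 (31.1%) of the cell numbers. Without block 8 it was 4 upwards and 1 downwards (34.5% and 28.8% of all genes), and without each other block 5 upwards (29.5% to 35.3%). Over these settings 10 to 13 members had the higher mean on HFD. The median log2 ratio ran from 0.22 without block 2 to 1.18 without block 3. On the deposited normalized values, 10 of the 13 were past the fold upwards and none downwards, where 36.8% of all genes were past it upwards and 27.1% downwards. Without the filter on low counts, 8 of 18 members were past it upwards and 1 downwards, of all genes 34.1% and 30.4%, and the 4 members newly past it (mt-Nd4l, mt-Atp8, mt-Tl2 and mt-Tq) have 2 to 9 counts each. With all cells, 12 of the 13 members shared the direction, but the cells overlapped for each member. The share of all genes with a higher mean on HFD was not computed, and their median log2 ratio was 0.04. The abundant members also rose and fell together over cells (median Spearman correlation of 0.62), so their shared direction is not 12 separate results.

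Among the complex I genes, mt-Nd1 ranged from 0 to 7016 CPM on CD with a median of 474.2, and from 0 to 6265 CPM on HFD with a median of 1083. Its means were 887.7 and 1579 CPM, a ratio of 1.78, which lay between 1.64 and 2.19 when any 1 cell was left out. mt-Nd5 ranged from 0 to 1705 CPM on CD (median 70.4) and from 0 to 2785 CPM on HFD (median 284.8), with means of 271.9 and 495.7 CPM and a ratio of 1.82. In both genes the HFD median was the higher one, and the cells of the 2 diets overlapped. The highest cell was on CD for mt-Nd1 and on HFD for mt-Nd5. The HFD to CD ratio of mt-Nd1 was 1.41 in Ghost and 2.14 in Pomc+ cells, and that of mt-Nd5 was 1.69 in Ghost cells.

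mt-Nd3 had the largest ratio of the 13, 2.16, with means of 7.02 CPM on CD and 15.2 CPM on HFD, but the medians of both diets were 0 and 1 cell decided it. That cell, a Pomc+ cell on HFD, had 3 counts among 10534, or 284.8 CPM, and without it the ratio was 1.12. The other abundant complex I genes were not past the fold, with ratios of means of 1.36 for mt-Nd2, 1.32 for mt-Nd6 and 1.22 for mt-Nd4. Their ratios of medians were larger, at 1.75, 2.25 and 1.39.

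mt-Cytb of complex III ranged from 0 to 5088 CPM on CD (median 610.2) and from 0 to 5349 CPM on HFD (median 1083), a ratio of means of 1.39. Of the complex IV genes, mt-Co1 ranged from 0 to 10168 CPM on CD (median 866.5) and from 0 to 8662 CPM on HFD (median 1395), a ratio of means of 1.27. mt-Co3 had a ratio of means of 1.42 (2.32 for the medians) and mt-Co2 one of 1.86 (3.29 for the medians). mt-Atp6, with means of 13.3 CPM on CD and 25.9 CPM on HFD, had a ratio of 1.95 (1.29 for the medians). mt-Co2 and mt-Atp6, both past the fold, are among the genes with a nuclear copy over nearly their whole length.

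The rRNA genes were the lowest of the 13 in this comparison. mt-Rnr2 had means of 6602 CPM on CD and 6698 CPM on HFD, a ratio of 1.01, and 1.39 when the cell numbered 700 was left out. mt-Rnr1 was the 1 member with a lower mean on HFD, 758.4 CPM on CD and 607.4 CPM on HFD. This ratio of 0.801 became 1.06 without 1 Pomc+ CD cell. Its median was also lower on HFD, at 258.8 against 458.2 CPM on CD. The HFD median was the lower one in Ghost cells (263.5 against 644.0 CPM) and in Pomc+ cells (254.1 against 456.1 CPM). The ratio of means was 1.08 in Ghost and 0.618 in Pomc+ cells. mt-Nd4l with 9 and mt-Atp8 with 5 counts were too rare to compare.

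**Figure D3:**
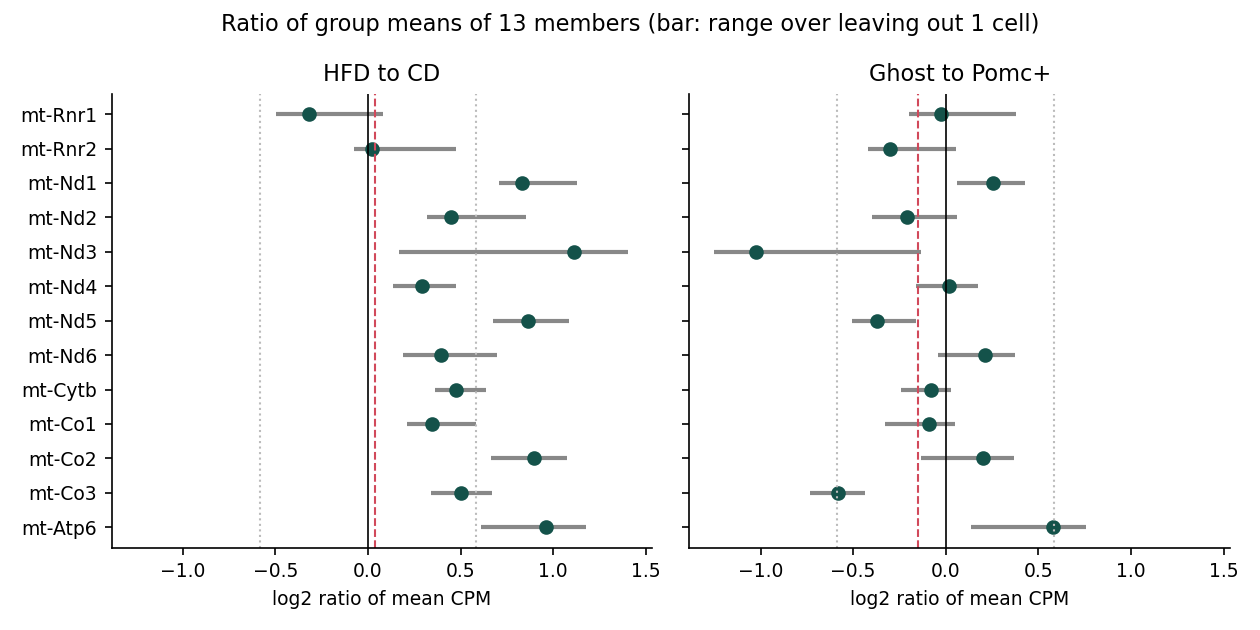
Log2 ratio of mean CPM of the 13 members that met the filter on counts, for HFD to CD (left) and Ghost to Pomc+ (right); the bar spans the values when any 1 cell is left out, dotted lines mark 1.5-fold, and the dashed line is the median of all genes. On the left 12 of 13 points lie above 0, on the right 5 of 13, and mt-Nd3 has the widest bar.

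Microglial transcripts had a higher median level on HFD, where diets and blocks of cell numbers cannot be told apart. The summed level of 7 microglial markers (Ctss, C1qa, C1qb, C1qc, Cx3cr1, Csf1r and Tmem119, each with a count in both diets) ranged from 0 to 2254 CPM on CD with a median of 0.344, and from 0 to 11041 CPM on HFD with a median of 419.4. Over the 76 cells it had a Spearman correlation of 0.38 with the mitochondrial share. The correlation was 0.06 in Ghost cells (-0.38 on CD and 0.17 on HFD) and 0.62 in Pomc+ cells (0.72 on CD and 0.61 on HFD). The summed level of 6 astrocyte markers had a correlation of 0.31, with medians of 359.9 CPM on CD and 295.6 CPM on HFD. Medians on CD and HFD were 109.8 and 197.5 CPM for the oligodendrocyte markers, and 0 and 21.5 CPM for the erythrocyte markers. All of these are shares of the same totals, and their part in the results was not tested.

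Between labels, 5 of the 13 members had a higher mean in Ghost cells and 8 a lower one, and their median log2 ratio was -0.08 against -0.15 over all genes. None was past the fold upwards, and 1 was past it downwards, a smaller share than the background of 36.9%. Without 1 block of cell numbers the number past the fold was 1 to 4, and without the cell numbered 700 it was 2. The number of members with a higher mean in Ghost cells was 9 of 13 without that cell (median log2 ratio 0.06), 2 of 13 without block 3 (-0.36) and 9 of 13 without block 7 (0.14), so the split of 5 and 8 rests on few cells. On the deposited normalized values, 1 of 13 was past the fold upwards and 1 downwards, where 16.4% of all genes were past it upwards and 52.6% downwards. Without the filter on low counts it was 0 and 1 of 16 members, of all genes 29.7% and 35.9%. This 1 gene was mt-Nd3, with means of 7.06 CPM in Ghost and 14.3 CPM in Pomc+ cells and a ratio of 0.492, which was 0.911 without the cell of 10534 counts. mt-Atp6 had the highest ratio, 1.495, and mt-Co3 the lowest after mt-Nd3, 0.667, and both are genes with a nuclear copy over nearly their whole length.

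The abundant members had ratios of means between 0.773 and 1.195. mt-Co1 ranged from 0 to 10168 CPM in Ghost cells (median 1360) and from 0 to 8662 CPM in Pomc+ cells (median 1005), with a ratio of means of 0.939. mt-Cytb had a ratio of 0.945, mt-Nd4 of 1.01, mt-Nd1 of 1.195, mt-Nd6 of 1.16, mt-Nd2 of 0.866 and mt-Nd5 of 0.773. mt-Rnr2 ranged from 480.4 to 21085 CPM in Ghost cells and from 143.2 to 72765 CPM in Pomc+ cells, and its ratio of 0.811 became 1.04 without the cell numbered 700. mt-Rnr1 had a ratio of 0.983. The ratio of medians was further from 1 for some of them, at 1.63 for mt-Nd1, 1.35 for mt-Co1 and, in the other direction, 0.704 for mt-Rnr1. For the other abundant members it lay between 1.07 for mt-Nd6 and 1.26 for mt-Nd5. On CD alone the ratio of means was 0.594 for mt-Rnr2, past the fold, and 0.95 when 1 Pomc+ cell was left out, and it was 1.48 for mt-Nd1. For 8 of the 13 members, leaving out 1 cell was enough to move the ratio from below 1 to above it or back.

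In the make-up of the protein-gene counts, single cells differed more than the groups. In the 67 cells with at least 100 such counts, mt-Co1 made a median of 32.1% of them (quartiles 24.3% and 36.6%), mt-Cytb 21.1% (15.7% and 28.7%), mt-Nd1 17.99% (11.9% and 23.9%), mt-Nd4 8.59%, mt-Nd2 5.96%, mt-Nd5 4.88% and mt-Nd6 1.86%. mt-Co3, mt-Co2 and mt-Atp6 made 0.531%, 0.293% and 0.269%. mt-Co1 was the most counted protein gene in 39 of the 67 cells, mt-Cytb in 17, mt-Nd1 in 9 and mt-Nd4 in 2. Over pooled counts of all cells the 7 complex I genes held 44.8%, the 3 complex IV genes 33.8%, mt-Cytb 21.1% and the 2 ATP synthase genes 0.273%.

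For each of the 13 genes the quartile ranges of Ghost and Pomc+ cells overlapped, as did those of CD and HFD cells. With all cells of a label or a diet together, the largest difference of medians was that of mt-Nd1. Its median was 19.8% in Ghost and 15.8% in Pomc+ cells, a difference of 3.99 percentage points, and 15.8% on CD and 20.3% on HFD, a difference of 4.53 percentage points. Single cells ran from 0% to 65.8% for mt-Nd1. Over pooled counts, in which deep cells weigh more, the difference of mt-Nd1 was 2.63 percentage points between labels and 2.26 between diets, and that of mt-Co1 was larger, at -4.44 for Ghost minus Pomc+ and -5.67 for HFD minus CD, where its medians differed by 0.60 and -0.52. Within a diet the gaps were wider for other genes, and their direction changed with the diet. On CD mt-Cytb had a median of 16.9% in Ghost and 25.6% in Pomc+ cells (-8.66 percentage points), and on HFD 23.7% and 18.3% (5.41 percentage points). mt-Co1 had 36.003% in Ghost and 27.9% in Pomc+ cells on CD (8.12 percentage points), and 29.6% and 33.3% on HFD (-3.71 percentage points). The quartile ranges overlapped for 13 of 13 genes in these comparisons too, and no test of the change in direction was made.

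**Figure D4:**
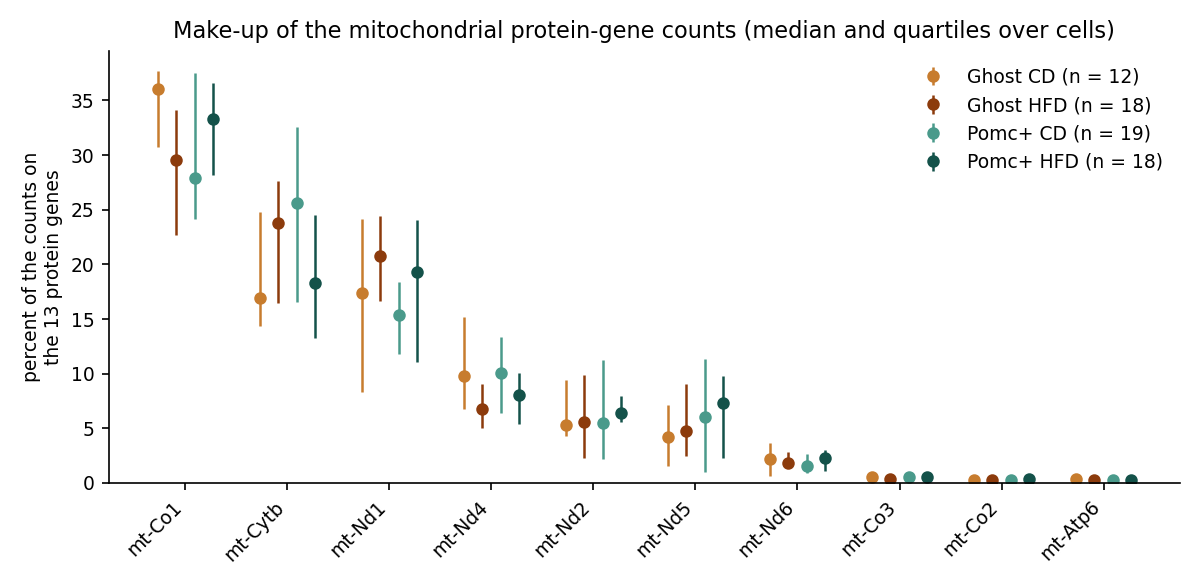
Percent of the counts on the 13 protein genes that fell on each of 10 of them, as median (point) and quartiles (bar) over cells with at least 100 such counts, in 12 Ghost CD, 18 Ghost HFD, 19 Pomc+ CD and 18 Pomc+ HFD cells; mt-Nd3, mt-Nd4l and mt-Atp8 are left out for their low counts. The order from mt-Co1 (32.1% over all cells) to mt-Atp6 (0.269%) is that over all cells, and for each gene the quartile ranges of the 2 labels overlap, as do those of the 2 diets.

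Cells with more genes detected had a lower mitochondrial share. The Spearman correlation over the 76 cells was -0.34 (Pearson -0.29), and it had the same sign in each group, with -0.49 in Ghost CD, -0.36 in Ghost HFD, -0.18 in Pomc+ CD and -0.47 in Pomc+ HFD cells. In the 26 cells with the fewest genes, 548 to 2196, the median share was 1.31%. It was 0.901% in the 25 cells with 2280 to 3897 genes and 0.685% in the 25 cells with 4074 to 9808 genes. After thinning to 40000 counts a cell, without the 8 shallower cells (5 Ghost and 3 Pomc+), the correlation was -0.26 over 68 cells. The total count of the cell enters both measures, so these values are a description.

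The relation was closer for mt-Rnr2 than for the protein genes. The correlation with genes detected was -0.45 for the share of mt-Rnr2 (-0.38 when thinned), -0.17 for that of the protein genes (-0.10 when thinned) and -0.10 for that of mt-Rnr1. The share of mt-Rnr2 had a median of 0.627% in the 26 cells with the fewest genes and of 0.246% in the 25 with the most. That of the protein genes was 0.593% and 0.316%. Within the protein genes, the share of single genes had correlations with the number of genes between -0.17 for mt-Nd1 and 0.20 for mt-Co1 among the 7 abundant genes over 67 cells. A median of 10 members had a count in the cells with the fewest genes and 13 in those with the most.

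**Figure D5:**
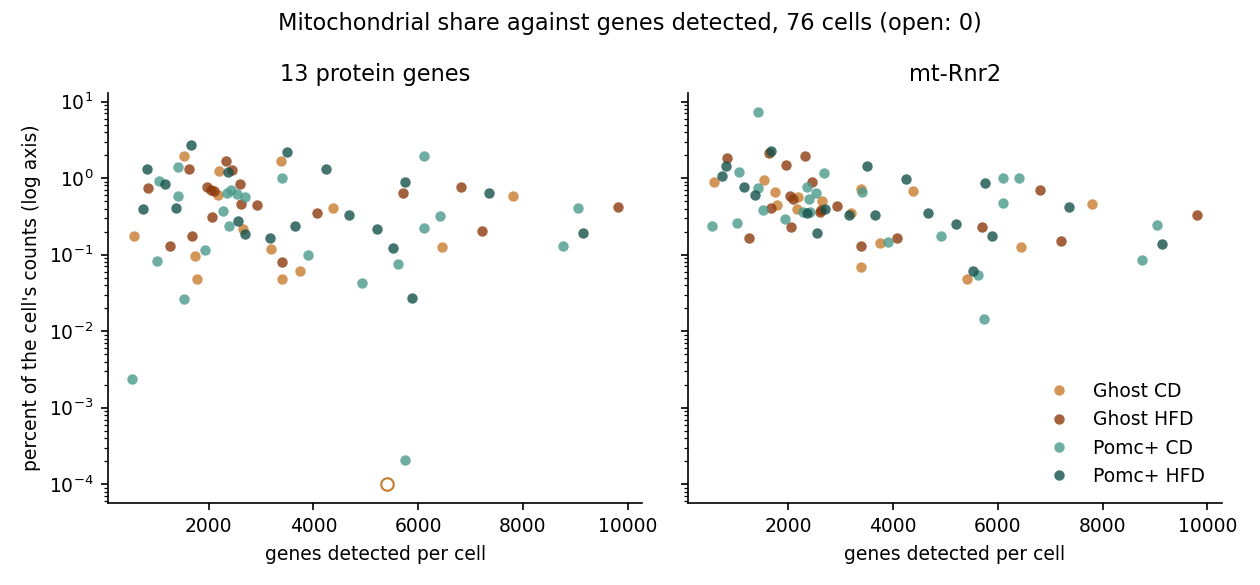
Percent of a cell's counts on the 13 protein genes (left) and on mt-Rnr2 (right), on a log axis, against the number of genes detected, for 76 cells coloured by group; the open circle is a cell at 0. The cloud falls to the right for mt-Rnr2 (Spearman -0.45) and less so for the protein genes (Spearman -0.17).

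The abundant members rose and fell together over cells. Among mt-Rnr1, mt-Rnr2 and the 7 abundant protein genes, the 36 pairwise Spearman correlations of CPM ran from 0.39 (mt-Nd5 and mt-Rnr1) to 0.85 (mt-Cytb and mt-Co1) with a median of 0.62. The share of mt-Rnr2 and that of the protein genes had a correlation of 0.76. For each count on mt-Rnr1 there were 8.32 on mt-Rnr2 (median of 60 cells with at least 20 counts on mt-Rnr1, quartiles 6.38 and 13.6).

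Nuclear genes of the same machinery followed the members weakly or not at all. The summed share of 91 nuclear genes of the respiratory chain and ATP synthase had a median of 1.32% of counts. Its correlation with the share of the mitochondrial protein genes was 0.21. By group it was 0.41 in Ghost CD, 0.11 in Ghost HFD, 0.13 in Pomc+ CD and 0.25 in Pomc+ HFD cells. That of 98 ribosomal protein genes had a median of 2.14% and a correlation of 0.10, and that of 7 nuclear long noncoding RNAs a median of 0.0519% and a correlation of -0.17. Of 33 genes for the transcription, RNA processing and upkeep of mitochondrial DNA, 31 had a count and 28 met the filter on counts, each counted in 4 to 26 cells. Tfam, which packs mitochondrial DNA and starts its transcription, had a count in 12 cells, the RNA polymerase gene Polrmt in 6 and Lrpprc, which stabilises mitochondrial mRNAs, in 20. Of the 28 genes, 10 had a ratio past the fold upwards and 11 downwards on HFD (median log2 ratio -0.10). Of all genes, 32.7% and 27.9% were past it. Mgme1, with means of 9.17 CPM on HFD and 0 on CD, has no ratio and is left out. Among all genes such a case was counted as upwards. In Ghost cells 9 of the 28 were past the fold upwards and 10 downwards (median -0.14), of all genes 25.4% and 36.9%. Whether these counts differ from the background was not tested.

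Totals per cell ran from 4057 to 1452605 counts (median 322652), and 548 to 9808 genes were detected. The 6 other genes counted in every cell took 7.23% to 95.8% of a cell's counts, and with them left out of the total the median mitochondrial share was 1.98% and ran up to 20.04%. Pomc had a count in 32 of 34 Ghost and 41 of 42 Pomc+ cells, with medians of 2364 and 3894 CPM. On CD the Pomc medians were 2291 CPM in Ghost and 6176 CPM in Pomc+ cells, but on HFD the Ghost median was the higher one, 4171 against 2206 CPM, so the level of Pomc RNA did not follow the label there. The neuronal marker list was counted in 73 of 76 cells. Medians of the summed marker levels of oligodendrocytes, endothelial cells and erythrocytes were 133.6, 0 and 7.5 CPM, and their Spearman correlations with the mitochondrial share were 0.12, 0.08 and 0.11, against -0.22 for the neuronal and -0.06 for the Pomc neuron markers.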

How the data were processed

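The data are Patch-seq libraries of 76 traced neurons, read in pairs of 150 bases. Per the submitters' processing notes, cutadapt 2.10, STAR 2.7.5a and DESeq2 were used, with the builds GRCm38 and mm10. The counting program and annotation are not given in the sources used here, and some identifiers are newer than GENCODE M21, from which positions and transcripts were taken. The deposited table of raw counts holds whole numbers per gene and cell with no molecular identifiers. The deposited normalized signal is the count divided by 1 size factor per cell, which equals, in 76 of 76 cells, the median of ratios over the 7 genes counted in every cell.

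CPM (counts scaled to 1000000 per cell), shares of counts and Spearman correlations were computed with python 3.11.15, pandas 2.3.3 and scipy 1.17.1. Copies were searched with BLAST 2.17.0 (e-value 1e-05) in annotated transcripts. The ratio of means was tested on simulated data, in which cells of the same group differed only in depth and counting error. The simulation therefore does not cover the spread between real cells. The members and lists (marker lists of 7 cell types, nuclear copies, mitochondrial upkeep, nuclear respiratory chain, ribosomal proteins and nuclear long noncoding RNAs) were chosen with earlier results of these data known. The text gives values for every rRNA and protein gene, tRNA genes by counts with the 3 of the most counts named (mt-Tf, and the tRNA genes of the minus strand, were named after their values were seen), listed genes and the 5 other genes most like the protein-gene share.

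The labels name no mouse, so no test was made between groups. Intervals (exact Clopper-Pearson, 95%) and limits for a count of 0 (3 counts) cover counting error only. Alternatives covered the denominator, normalization, summary, genes, cell filters, depth, other factor, left-out cells and blocks.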

Additional observations from a re-analysis of the deposited data

How the results depend on the processing

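The log2 ratio of the median mitochondrial share was 0.19 for Ghost to Pomc+ and 0.24 for HFD to CD. Over 18 alternatives each, it ran from -0.42 (deposited normalized values) to 0.37 (without mt-Rnr2) for the labels, where 5 had the other sign, and from -0.16 (without the first block of cell numbers) to 0.97 (13 protein genes alone) for the diets, where 2 had the other sign. Leaving out any 1 cell gave 0.14 to 0.24 for the labels and 0.17 to 0.31 for the diets. The difference in the make-up stayed positive for mt-Nd1, from 1.40 to 4.04 percentage points between labels and from 2.26 to 5.42 between diets. The number of members past the fold did depend on the choices. For HFD to CD it was 5, but 10 on the deposited normalized values of the same 13 members, and 9 of 18 without the filter on low counts. In alternatives chosen after seeing the data, it was 8 without the cell numbered 700, 10 without block 3, 8 without block 7 and 5 without each other block. All of these were upwards, except that without block 8 they were 4 upwards and 1 downwards. For Ghost to Pomc+ it was 1, and 2 on the deposited normalized values. In alternatives also chosen after seeing the data, it was 2 without the cell numbered 700, 4 without block 2, 3 without block 7, 2 without block 1, 3, 5 or 8 and 1 without block 4 or 6. The cause was not tested. On the deposited normalized values the median log2 ratio of all genes moved to -0.64 for the labels and 0.13 for the diets. The correlation with genes detected kept its sign in 5 of 5 alternatives, from -0.49 to -0.18. No paired analysis was possible because each cell number belongs to 1 cell of 1 group and the labels name no mouse. Labels were compared only as values within blocks of cell numbers. Depth limits the rare members most: mt-Nd4l, mt-Atp8 and the tRNA genes had 9 counts or fewer each, except mt-Tp with 21.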
